A study of Mus musculus with 6 samples.

Results

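The potassium channel genes were taken as every gene of the count table whose symbol starts with Kcn, a rule that uses names alone and no measured value. It gave 94 of 21958 protein-coding genes, of which 77 encode channel pores or the silent subunits that modify them and 17 encode auxiliary subunits. At least 1 count was seen for 90 of the 94, and 72 passed the filter on low counts, among 12255 genes tested.

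Potassium channels are membrane proteins through which potassium leaves or enters the cell, and their opening brings neurons back to rest, spaces action potentials and limits dendritic excitation. Voltage-gated families open on depolarization, inward rectifiers and two-pore channels hold the resting potential, and calcium- or sodium-activated families open when those ions enter. Auxiliary subunits change the gating or trafficking of the pores, and at synapses several of these channels are known to set transmitter release or the spread of synaptic potentials.

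RNA was sequenced from synaptoneurosomes, resealed nerve endings with the attached spine heads, which are collected by filtering and spinning down gently broken brain tissue. They were made from the hippocampus and neighbouring cortex of FVB mice aged 6 to 8 weeks, with tissue of several animals pooled per preparation. In the NMDA polyribosome group (n = 3) the material received 50 µM NMDA and 10 µM glutamate for 30 s, then 120 µM APV, an NMDA receptor blocker, and after 20 min the polyribosomal fractions of a sucrose gradient were collected. The unstimulated total group (n = 3) is RNA of synaptoneurosomes that received no agonist and were not fractionated. The study's methods also describe warming and incubation of the stimulated material, and ice and cycloheximide, a blocker of translation, for unstimulated controls. Stimulation, handling and fraction thus changed together between the groups, and their effects cannot be told apart for any gene.

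The polyribosome libraries held 5294482 to 7361580 counts and the total libraries 1044955 to 3738022, so that the total libraries set the precision of weakly expressed channels. Levels are given as CPM, counts scaled to a common library size of 1000000 with edgeR's TMM factors, always in the order of replicates 1, 2 and 3, and levels of different genes are compared per kilobase of exon. The log2 fold change is polyribosomes over total, so that a positive value means a larger share of the RNA on polyribosomes. A gene was called at an adjusted p under 0.01, either in the unpaired edgeR fit or in the fit with the replicate number as a block, which compares the libraries of 1 preparation with each other. Because each value is a share of a mixed tissue's RNA, it does not show which cells or synapses a difference came from. The study's methods describe aliquots of the same preparation for both kinds of RNA, so a fold change compares fractions and treatments rather than tissues.

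What the pores share, beside a symbol, is the selectivity filter, the short stretch that strips potassium ions of their water. The translated reading frames were searched for threonine or serine, then valine, isoleucine, threonine or leucine, then glycine, tyrosine or phenylalanine, and glycine, letters that were widened until all pore families were found. This string occurred in 77 of the 77 pore and modifier genes and in 0 of the 17 auxiliary genes, against 107 of 20969 other coding sequences (0.510%). There was 1 such string in 66 genes and 2 in each of 11, all of these of the two-pore Kcnk family. The other 3 of the 14 Kcnk genes, Kcnk1, Kcnk6 and Kcnk7, held it once. A filter with other letters, such as leucine in place of tyrosine or phenylalanine, is missed by this search. The counts are therefore of strings, not of all filters. The filter codons of 3 pairs of related genes and of the member with the highest fold change are shown as examples. These genes were picked by the fold changes given below, and no link between filter codons and fold change was tested. Each window of 45 bases lies within 1 exon and reads 5′ to 3′ on the coding strand of GRCm38, with the 5 filter codons in capitals.

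Kcna3: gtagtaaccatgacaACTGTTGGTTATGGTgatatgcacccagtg
Kcna4: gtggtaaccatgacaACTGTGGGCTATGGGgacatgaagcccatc
Kcnh3: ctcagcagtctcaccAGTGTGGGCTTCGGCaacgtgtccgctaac
Kcnh7: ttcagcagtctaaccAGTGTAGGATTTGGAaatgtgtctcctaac
Kcnt1: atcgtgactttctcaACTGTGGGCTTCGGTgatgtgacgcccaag
Kcnt2: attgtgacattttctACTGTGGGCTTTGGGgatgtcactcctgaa
Kcnk12: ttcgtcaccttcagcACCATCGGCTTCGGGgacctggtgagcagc

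The Kcna3 window is at chr3:107037596-107037640 (plus strand) in exon 1 and that of Kcna4 at chr2:107296480-107296524 (plus strand) in exon 2. For Kcnh3 the window is chr15:99232914-99232958 (plus strand) in exon 8, and for Kcnh7 chr2:62777328-62777372 (minus strand), also in exon 8. Kcnt1 was read at chr2:25894352-25894396 (plus strand) in exon 11 and Kcnt2 at chr1:140425263-140425307 (plus strand) in exon 9. The second filter of Kcnk12 is at chr17:87746438-87746482 (minus strand) in exon 2. All 7 windows are coding. Of the 5 wobble positions, the last base of each filter codon, G or C stood at 0 in Kcna3 and Kcnh7, at 3 in Kcna4, Kcnt1 and Kcnt2, at 4 in Kcnh3 and at 5 in this filter of Kcnk12. The first filter of Kcnk12, whose window spans exons 1 and 2 and is not printed, had 3. In the 3 pairs the 5 filter residues were identical, while 3 of 5 codons differed between Kcna3 and Kcna4, 4 between Kcnh3 and Kcnh7 and 2 between Kcnt1 and Kcnt2.

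The family as a whole took a like share of both kinds of RNA. Kcn genes held 0.781%, 0.863% and 0.797% of the counts in the polyribosome libraries and 0.818%, 0.860% and 0.856% in the total libraries, with means of 0.814% ± 0.043 and 0.845% ± 0.024 (SD, n = 3 each). The ranges overlapped. The mRNA of Kcnj10, which encodes the astrocytic inward rectifier Kir4.1 (chr1:172341210-172374085), was the most abundant per length, with 282 ± 33.0 CPM per kilobase on polyribosomes and 235 ± 27.3 in total RNA (SD, n = 3 each). Its lowest library, at 215 CPM per kilobase, lay above the highest of the next gene, Kcnab2, at 129. Below it the order of neighbours was not resolved. Of the 24 neighbouring pairs among the 25 most abundant members named here, the other 23 had ranges over the 6 libraries that overlapped. Genes further apart could be separate, as Kcnab2 at 67.5 to 129 CPM per kilobase and Kcnf1 at 28.6 to 46.0 were.

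After Kcnj10 came Kcnab2, a beta subunit of Kv1 channels, at 105 ± 20.6 CPM per kilobase on polyribosomes and 85.5 ± 20.0 in total RNA. Kcnk1, the two-pore channel TWIK-1, stood at 93.2 ± 9.38 and 66.8 ± 5.79 CPM per kilobase. Kcna1, Kcnj4, Kcnh3, Kcnj9, Kcna2 and Kcnf1 were also among the 10 highest. The axonal Kv1 subunit Kcna1 had a mean of 63.1 CPM per kilobase over all libraries. In the other voltage-gated families the highest members per length included Kcnc1 of the fast Kv3 family at 25.1 and Kcnd2, the dendritic A-type subunit, at 27.5 CPM per kilobase. Kcnn3, a small-conductance calcium-activated channel, reached 31.6 CPM per kilobase, the BK beta subunit Kcnmb4 29.2, the calcium-binding Kcnip3 32.0, the sodium-activated Kcnt1 11.4 and the single-pass subunit Kcne1l 6.12. Lengths come from a later release of the annotation than the counts, and for Kcnj11 and Kcns2 its exons sum to more than the span given in the count table, so that their levels per kilobase may be understated.

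**Figure D1:**
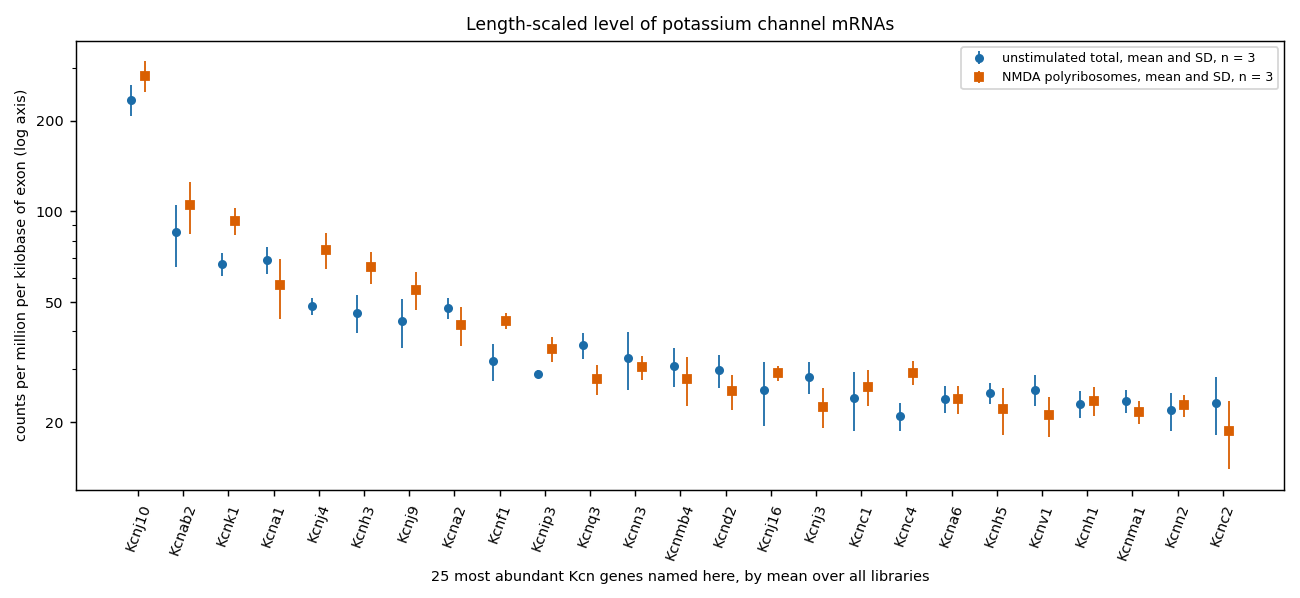
CPM per kilobase of exon (log axis) of the 25 most abundant potassium channel genes named here, as mean and SD of the 3 unstimulated total libraries (circles) and the 3 NMDA polyribosome libraries (squares). Kcnj10 stands alone at the top, and from Kcnab2 down the ranges of neighbouring genes overlap.

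Of the 22 genes that were not tested, 4 had no count in any library, namely Kcne1, Kcnj1, Kcnk16 and Kcnk18. Another 10 had 1 to 9 counts over all libraries (Kcna10, Kcna7, Kcne3, Kcnj15, Kcnk15, Kcnk7, Kcnmb3, Kcnn4, Kcnrg and Kcnv2). The other 8 had 16 to 43 counts, the most for Kcna5, with 27 on polyribosomes and 16 in total RNA, while Kcnu1 had the fewest of these, with 10 and 6. Kcne2, a subunit known from the choroid plexus, had 27 and 10 counts, Kcnmb1 22 and 7, Kcnh6 21 and 9, Kcnh8 18 and 11, Kcnj5 18 and 8, and Kcnq1 17 and 9. No comparison was made for these 22 genes.

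In the unpaired fit, 1 of the 72 genes was called lower on polyribosomes and 0 were called higher, beside 2.36% lower and 0.71% higher among all genes tested. At an unadjusted p under 0.05 there were 14 higher and 7 lower (19.4% and 9.72%), beside 15.4% and 17.1% of all genes. DESeq2 called 1 higher and 1 lower of the 62 to which it gave an adjusted p, beside 3.31% and 3.83% of 9712 genes. With the replicate block 11 were called higher, 6 lower and 55 neither, which is 15.3% and 8.33% of the 72, beside 11.8% higher and 13.2% lower among all genes. In 14 of the 72 all polyribosome libraries lay above all total libraries and in 9 all lay below, which is 19.4% and 12.5%, beside 17.4% and 18.9% of all genes. The log2 fold changes of the 72 ran from -0.90 to 0.91 with a median of 0.08, 40 above 0 and 32 below, and the median over all genes was 0.00097. Channels therefore stood on both sides.

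**Figure D2:**
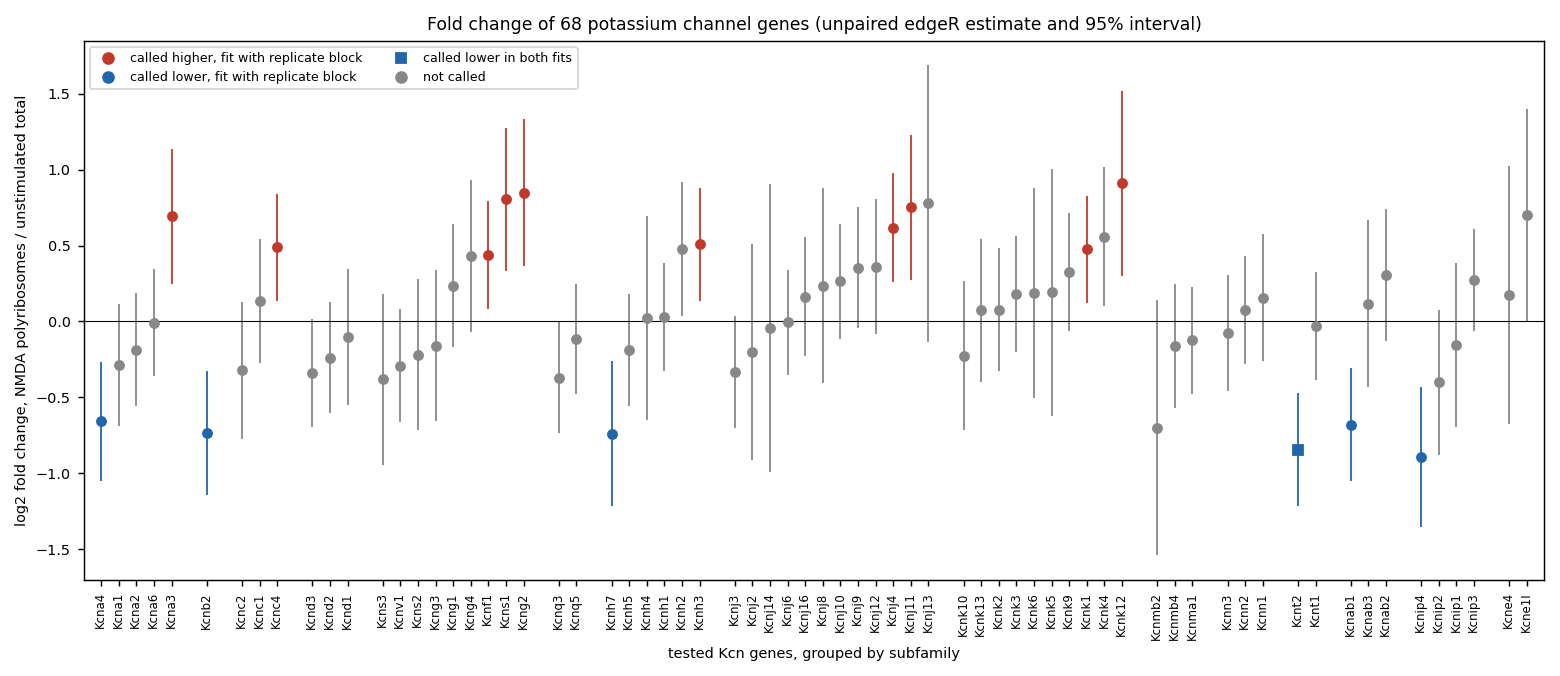
Log2 fold change of NMDA polyribosomes over unstimulated total for 68 of the 72 tested genes, with the 95% interval of the unpaired edgeR fit, grouped by subfamily along the horizontal axis. Red and blue mark 10 genes called higher and the 6 called lower with the replicate block, and the square is Kcnt2, called in both fits.

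Kcnt2 was the gene called in both fits. It encodes Slick, a sodium-activated channel, and lies at chr1:140246158-140612067. Its level was 44.9, 50.0 and 36.9 CPM on polyribosomes and 81.9, 84.7 and 68.1 CPM in total RNA. Every polyribosome library was below every total library, and the log2 fold change was -0.84 ± 0.17 (SE), with an edgeR adjusted p of 0.00897 unpaired and 1.04e-07 with the block. Leaving out 1 library kept the unpaired call only without total replicate 3. Without any of the other 5 the edgeR adjusted p lay between 0.0131 and 0.0559, with a log2 fold change of -0.94 to -0.74. Its relative Kcnt1, or Slack, stood at 66.4, 72.2 and 72.3 CPM on polyribosomes and 66.5, 66.0 and 86.3 in total RNA, overlapping ranges, with -0.03 ± 0.17 on the log2 scale and an edgeR adjusted p of 0.921. The difference between the members of a pair was not tested here or below.

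Among Kv1 genes, 5 of 8 were tested, 1 was called higher and 1 lower with the block, beside 11.8% and 13.2% of all genes. Kcna3, a delayed rectifier found in axons and in microglia, was measured at 20.0, 24.9 and 29.2 CPM on polyribosomes and 15.1, 16.1 and 13.4 CPM in total RNA, without overlap. The log2 fold change was 0.69 ± 0.21 (SE), with an edgeR adjusted p of 0.0378 unpaired and 0.00297 with the block. Kcna4, the A-type subunit of axons, was at 30.7, 41.9 and 31.7 CPM on polyribosomes against 49.7, 59.9 and 55.6 in total RNA, again without overlap but in the other direction. Its log2 fold change was -0.66 ± 0.18, with an edgeR adjusted p of 0.0288 unpaired and 7.08e-05 blocked. The more abundant Kcna1 (243, 311 and 199.5 and 307, 337 and 273 CPM) and Kcna2 (465, 587 and 449 and 528, 561 and 619 CPM) overlapped between groups, and Kcna6 had a log2 fold change of -0.01 ± 0.17. The untested members are Kcna5, Kcna7 and Kcna10.

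Kcnb2 encodes a Kv2 subunit, of the family that carries much of the delayed rectifier current of neurons. It was at 42.3, 57.7 and 37.7 CPM on polyribosomes against 66.3, 83.1 and 81.5 CPM in total RNA, with no overlap, a log2 fold change of -0.73 ± 0.19 and an edgeR adjusted p of 0.0233 unpaired and 4.62e-06 blocked.

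The silent subunits of the Kcnf, Kcng, Kcns and Kcnv families form no channel alone and join Kv2 subunits. Of 10, 9 were tested and 3 were called higher with the block, and none was called lower in that fit. Among all genes tested these shares were 11.8% and 13.2%. With the GC content and length offset described below, none of the 9 was called. Kcnf1 was the most abundant, at 195, 208 and 220.1 CPM on polyribosomes and 144, 176 and 137 CPM in total RNA. Kcng2 had 16.4, 19.0 and 24.5 CPM and 9.93, 12.4 and 10.5 CPM, and Kcns1 17.99, 25.2 and 24.7 CPM and 10.9, 14.4 and 14.4 CPM. In all 3 genes the groups did not overlap. Their log2 fold changes were 0.44 ± 0.17, 0.85 ± 0.23 and 0.81 ± 0.22 (SE), with edgeR adjusted p of 0.0828, 0.0249 and 0.0275 unpaired and 0.00355, 0.000806 and 0.000449 with the block. The other 6 tested members ran from -0.38 for Kcns3 to 0.43 for Kcng4 on the log2 scale.

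Kv3 channels let neurons fire fast, and Kv4 channels carry the dendritic A-type current. The Kv3 gene Kcnc4 was called higher with the block, at 96.0, 109.8 and 115 CPM on polyribosomes and 67.3, 83.1 and 79.6 CPM in total RNA without overlap. Its log2 fold change was 0.49 ± 0.17 (SE), and the edgeR adjusted p 0.0580 unpaired and 0.00146 with the block. Kcnc1 (0.14) and Kcnc2 (-0.32) passed neither test. All 3 Kv4 genes had negative log2 fold changes, -0.10 for Kcnd1, -0.24 for Kcnd2 and -0.34 for Kcnd3, and none passed either test. For Kcnd3 the libraries did not overlap, at 99.4, 122 and 93.7 CPM on polyribosomes and 123, 142 and 135 CPM in total RNA.

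Of the 8 ether-a-go-go genes 6 were tested, and 1 was called higher and 1 lower with the block, beside 11.8% and 13.2% of all genes. Neither was called with the GC content and length offset described below. Kcnh3, an Elk channel of forebrain neurons, was found at 242, 213 and 271 CPM on polyribosomes and 148, 167 and 197 CPM in total RNA, without overlap. Kcnh7, an Erg channel, was found at 206, 255 and 133 CPM and 314, 394 and 280.0 CPM, likewise without overlap. The log2 fold change was 0.51 ± 0.17 for Kcnh3 and -0.74 ± 0.22 for Kcnh7, with edgeR adjusted p of 0.0597 and 0.0387 unpaired and 0.000650 and 4.86e-07 with the block. Exons of Kcnh7 share 696 bases with Gca on the opposite strand, and the sources used here differ on whether the libraries kept strand and do not say if reads were counted by it, so that part of its reads may be uncertain. Exons of Kcnh3 share 1 base with Mcrs1 and those of Kcnn1 132 bases with A230052G05Rik, also on opposite strands. Kcnh1, Kcnh2, Kcnh4 and Kcnh5 passed neither test, with log2 fold changes from -0.19 for Kcnh5 to 0.48 for Kcnh2.

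Kcnq3 encodes a subunit of the M-current channel, which slows repeated firing. It had 332, 365 and 289 CPM on polyribosomes and 393, 409 and 475 CPM in total RNA, with every polyribosome library lower, a log2 fold change of -0.37 ± 0.17 and an edgeR adjusted p of 0.147, or 0.0149 with the block. Kcnq5 (-0.11) was also not called in either fit, and Kcnq1 was not tested.

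Of the 15 inward rectifier genes 12 were tested, and with the block 2 were called higher and none lower. Among all genes 11.8% were called higher and 13.2% lower in that fit. Kcnj4, or Kir2.3, known from postsynaptic sites of forebrain neurons, had 135, 170.2 and 176 CPM on polyribosomes and 99.3, 112 and 102 CPM in total RNA. Kcnj11, the pore of the ATP-sensitive channel that closes when the cell has energy, had 26.1, 31.6 and 39.1 CPM and 15.9, 18.8 and 25.9 CPM. In both genes every polyribosome library was above every total library. The log2 fold changes were 0.62 ± 0.17 and 0.75 ± 0.22 (SE), with edgeR adjusted p of 0.0271 and 0.0367 unpaired and 7.11e-05 and 0.000315 with the block. Kcnj4 was the 1 gene that DESeq2 called higher. The subunits of the G protein-gated channels, Kcnj3 (-0.33), Kcnj6 (-0.01) and Kcnj9 (0.36), lay on both sides of 0 and none was called.

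Kcnj10 itself, at 1408, 1439 and 1731 CPM on polyribosomes and 1164, 1209 and 1439 CPM in total RNA, overlapped between groups while each of the 3 preparations had more on polyribosomes. The log2 fold change was 0.27 ± 0.18, with an edgeR adjusted p of 0.324 unpaired and 0.0901 with the block. Its astrocytic partner subunit Kcnj16 had 113, 122 and 109 CPM and 112, 117 and 72.9 CPM and a log2 fold change of 0.16 ± 0.18. Over the 11 astrocyte markers, the sum was 41511 to 43926 CPM on polyribosomes and 32708 to 37308 CPM in total RNA. Most of this sum was Slc1a2, with means of 31981 of 42846 CPM and 27872 of 34783.5 CPM. Slc1a2 was not called in the unpaired or the blocked fit. With the block 8 of the 11 were called higher, beside 11.8% of all genes, and all 11 were present in every library. The part of astrocyte RNA in the Kcnj10 values was not tested. The choroid plexus channel Kcnj13 stood at 5.01, 7.23 and 12.6 CPM and 3.72, 3.35 and 10.5 CPM, highest in replicate 3 of both groups. So was Ttr, the choroid plexus transthyretin, at 463, 637 and 886 CPM and 253, 414 and 471 CPM. The other ependyma or choroid plexus markers were not. Foxj1 had 5.68, 7.08 and 5.15 CPM on polyribosomes and 2.48, 4.69 and 5.75 CPM in total RNA. Kl had 14.6, 21.7 and 28.2 CPM and 17.1, 28.8 and 14.4 CPM. Kcnj2, or Kir2.1, was highest in replicate 2 of both groups, at 24.5, 52.9 and 28.6 CPM on polyribosomes and 25.6, 65.0 and 28.8 CPM in total RNA, and in both Kcnj13 and Kcnj2 the groups overlapped.

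Two-pore channels carry the background current that sets the resting potential. Of 14 genes 10 were tested, and 9 of them had a log2 fold change above 0, beside 50.1% of all genes tested. With the block 2 were called higher, beside 11.8% of all genes. Kcnk1 had 185, 225 and 215 CPM on polyribosomes and 146, 163 and 138 CPM in total RNA, without overlap, a log2 fold change of 0.48 ± 0.16 and an edgeR adjusted p of 0.0617 unpaired and 0.00167 blocked. Kcnk12, or THIK-2, had 22.5, 24.6 and 31.1 CPM and 7.95, 15.7 and 23.0 CPM, and here total replicate 3 lay above polyribosome replicate 1. The log2 fold change of Kcnk12 was 0.91 ± 0.29, the highest of the 72, with an edgeR adjusted p of 0.0436 unpaired and 4.59e-05 with the block. The fold change rested unequally on the preparations, with log2 differences of 1.5, 0.64 and 0.43 in replicates 1, 2 and 3, and it was 0.48 without total replicate 1 and 1.16 without total replicate 3. The summed level of all Kcnk genes was 394 to 438 CPM on polyribosomes and 302 to 338 CPM in total RNA, ranges that did not overlap. Much of this sum was Kcnk1, with means of 208 of 416 CPM on polyribosomes and 149 of 325 CPM in total RNA.

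No calcium-activated channel gene was called. Kcnma1, the pore of the large-conductance BK channel, had 264, 307 and 266 CPM on polyribosomes and 304, 330.2 and 277 CPM in total RNA and a log2 fold change of -0.12 ± 0.16. The small-conductance genes had log2 fold changes of 0.16 for Kcnn1, 0.08 for Kcnn2 and -0.08 for Kcnn3. None of these, nor Kcnmb2 (-0.70) or Kcnmb4 (-0.16), passed either of these tests.

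Of the 17 auxiliary genes 11 were tested, and 2 were called lower with the block, beside 13.2% of all genes. Kcnip4, a calcium-binding subunit of Kv4 channels whose gene spans chr5:48389502-49524907, had 10.3, 10.2 and 14.6 CPM on polyribosomes and 19.6, 20.8 and 26.9 CPM in total RNA. Every polyribosome library was below every total library, and the log2 fold change of -0.90 ± 0.22 was the lowest of the 72, with an edgeR adjusted p of 0.0169 unpaired and 9.73e-06 with the block. Without polyribosome replicate 3 the unpaired edgeR adjusted p of Kcnip4 was 0.00709, at a log2 fold change of -1.05. Without any of the other 5 libraries it lay between 0.0300 and 0.0643, with a log2 fold change of -1.0 to -0.80. Kcnab1, a beta subunit that makes Kv1 channels inactivate, had 22.5, 19.3 and 21.0 CPM and 34.5, 31.8 and 34.5 CPM, also without overlap, with a log2 fold change of -0.68 ± 0.18 and an edgeR adjusted p of 0.0219 unpaired and 0.000219 blocked. Its paralog Kcnab2 had 374, 396 and 532 CPM and 279, 339 and 442 CPM, which overlapped, and a log2 fold change of 0.30 ± 0.20. Kcnip3, at 101, 117 and 121 CPM and 93.9, 90.8 and 95.9 CPM, did not overlap in the other direction (0.27 ± 0.16), and was not called in either fit (edgeR adjusted p 0.248 and 0.0969). Kcne1l, with few counts, had 8.25, 13.0 and 13.8 CPM and 4.22, 10.7 and 6.71 CPM and a log2 fold change of 0.70 ± 0.33, not called, which was 0.28 without total replicate 1 and 1.24 without total replicate 2.

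**Figure D3:**
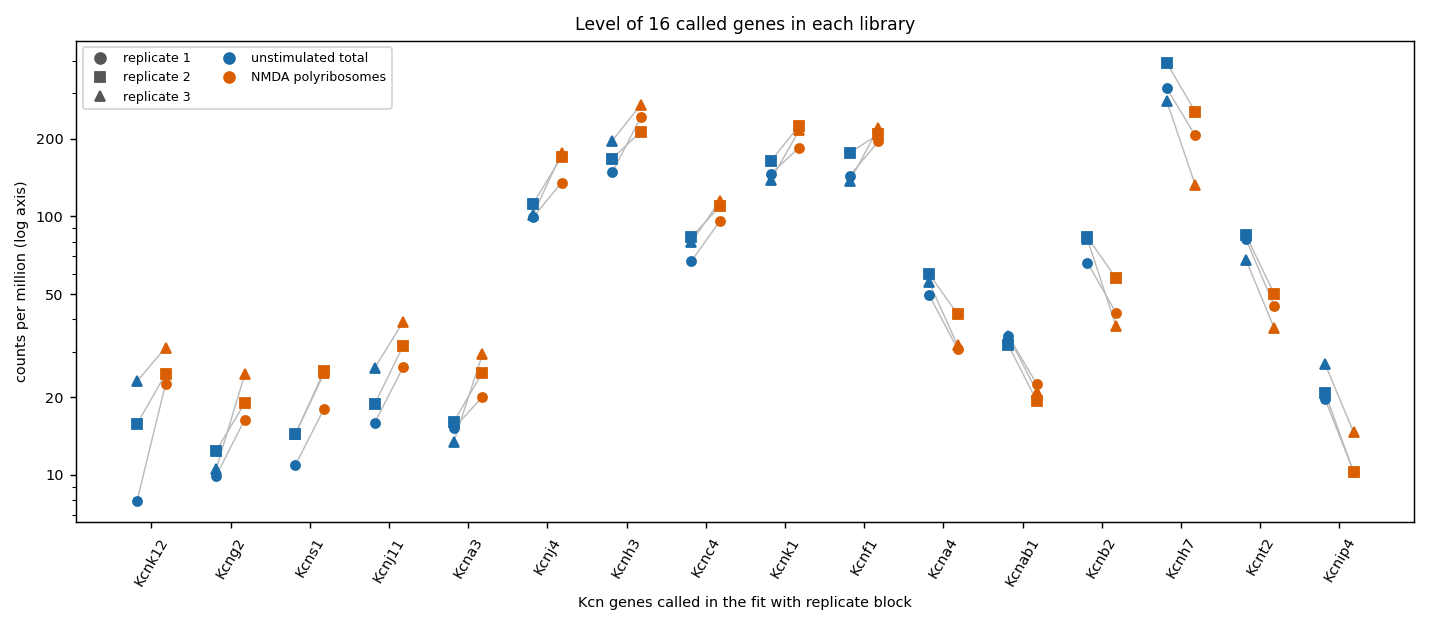
CPM (log axis) in each library for 16 of the 17 genes called with the replicate block, ordered by fold change, with total RNA at left and polyribosomes at right of each gene and lines joining the libraries of 1 replicate number. All lines of the first 10 genes rise and all lines of the last 6 fall, while the groups overlap in Kcnk12.

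The called genes also differed in base composition, which the rule did not use. The transcripts of the 11 genes called higher with the block held 51.8% to 69.4% G and C, with a median of 60.3%, and those of the 6 called lower 36.6% to 44.8%, with a median of 39.9%, so that the ranges did not meet. Kcnt2 had the lowest GC content of the 72 tested genes (36.6%) and Kcnk12 the highest (69.4%). Over the 72 genes, GC content and log2 fold change correlated with Pearson's r of 0.76 and Spearman's rho of 0.74. Over 12212 genes with a transcript sequence the values were 0.54 and 0.54. For GC at the wobble positions of the 72 genes r was 0.63, and for log2 transcript length -0.40. These are correlations across genes of the same 6 libraries, which are not independent replicates, and they are given as descriptions. The median over all genes rose from -0.50 at 36% to 40% GC to 0.64 at 64% to 68%.

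To see the members beside other genes of like composition, the blocked fit was repeated with each gene offset by the trend of all genes with GC content and with transcript length. In that fit, 4 of the 72 were called higher and 3 lower, which is 5.56% and 4.17%, beside 8.95% higher and 7.08% lower among all genes. Of the 11 genes called higher with the block alone none was called, and of the 6 called lower 1 was, although all 17 kept their sign. Kcnt2 then had a log2 fold change of -0.22 and an edgeR adjusted p of 0.170, and Kcnk12 of 0.09 and 0.766. Kcnip4 remained called, at -0.64 with an edgeR adjusted p of 0.00286. The calls that stood only with the offset included Kcnk9 (0.58), Kcnj10 (0.40) and Kcnj16 (0.45) as higher, and Kcnmb4 (-0.76) and Kcnip2 (-0.62) as lower, with edgeR adjusted p of 0.000509, 0.00981, 0.00144, 1.09e-06 and 5.27e-05. Kcnk9 encodes the acid-sensitive channel TASK-3, and Kcnj10 and Kcnj16 form the astrocytic channel together. Across the 72 genes the correlation with GC content was then r = 0.10 and rho = 0.16. This fall is built into the fit, because the offset removes the trend over all genes, where r was then 0.02.

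**Figure D4:**
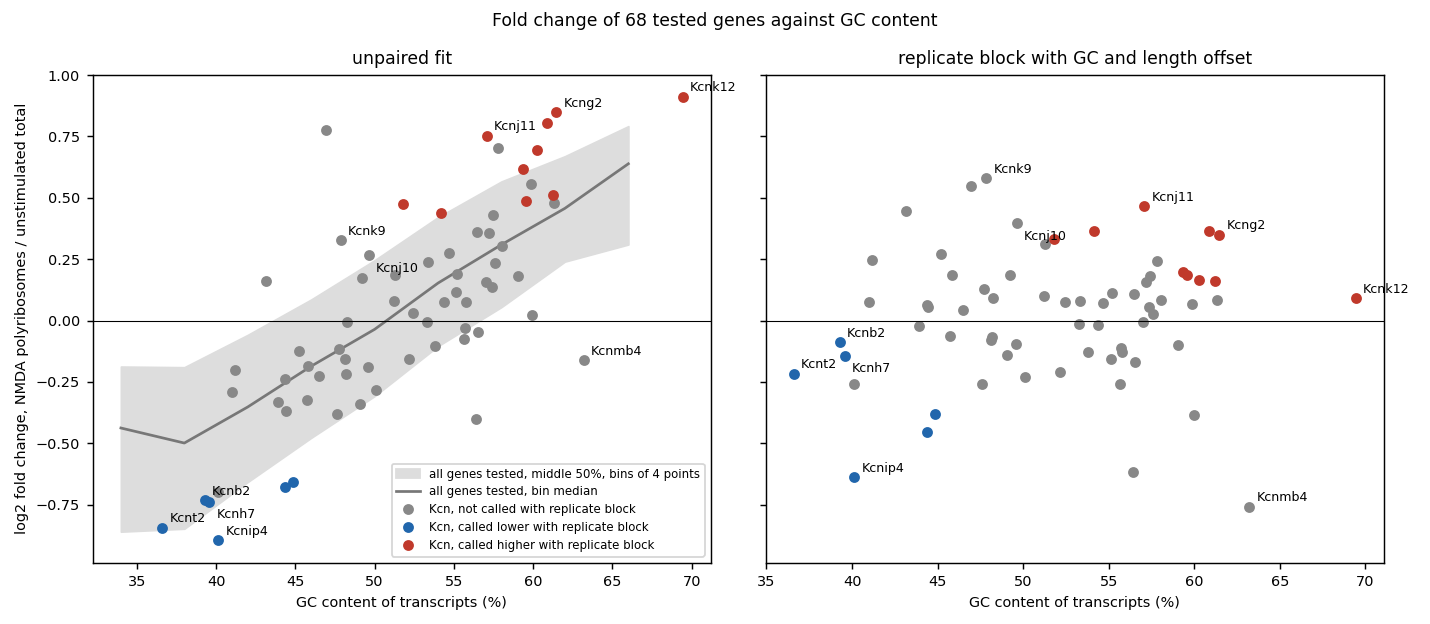
Log2 fold change (vertical axis) against the GC content of the transcripts (horizontal axis, percent) for 68 of the 72 tested genes, in the unpaired fit (left) and in the fit with replicate block and an offset for GC content and length (right). Grey line and band give the median and middle 50% of all genes in bins of 4 points. At left r is 0.76 over all 72 genes, and at right, where the offset removes the trend with GC content by construction, it is 0.10.

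Proteins that bind or anchor these channels were examined as a list of 26 partner genes, of which 23 were tested. None was called in the unpaired edgeR fit, where 2 were higher and 5 lower at an unadjusted p under 0.05 (8.70% and 21.7%, beside 15.4% and 17.1% of all genes), and DESeq2 called 1 lower. With the block, 2 of 23 were higher and 4 lower (8.70% and 17.4%, beside 11.8% and 13.2%), and the median log2 fold change was -0.10, beside 0.00097 over all genes. Cntn2, the axonal adhesion molecule that holds Kv1 channels beside the node, was higher at 0.58 ± 0.25, and Dlg4, the scaffold PSD-95, at 0.41 ± 0.18. Dlg1, the related scaffold SAP97, was lower at -0.55 ± 0.17, and Akap5, an anchor at M-current channels, at -0.44 ± 0.21. Rgs7, which speeds the closing of G protein-gated channels, stood at -0.85 ± 0.18, and Fmr1, whose product binds sodium- and calcium-activated channels, at -0.50 ± 0.22 (log2 fold change and SE of the unpaired fit). With the offset added, Cntn2 and Dlg4 were again called higher, together with Dpp10, Vapa and Cntnap2, and Rgs7 was the 1 called lower. The Kv4 partner Dpp6 was at 0.30 ± 0.17 and the axon initial segment scaffold Ank3 at -0.18 ± 0.19, not called. The BK gamma subunits Lrrc26, Lrrc38 and Lrrc52 were too low to be tested, and Lrrc26 had no count.

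Cell type markers show which cells the RNA came from. All markers of neurons and of synapses were present in every library, with the excitatory list at 5591 to 7492 CPM on polyribosomes and 4934 to 6603 CPM in total RNA. Inhibitory markers summed to 430 to 827 CPM and 379 to 582 CPM. RNA of glia and vessels was present as well, beside that of astrocytes above. Oligodendrocyte markers summed to 10964 to 14815 CPM on polyribosomes and 7902 to 11060 CPM in total RNA, with 4 of 7 called higher with the block. Microglial markers, relevant to Kcna3, summed to 941 to 1086 CPM and 604 to 844 CPM, with 4 of 9 called higher. Of the markers of oligodendrocyte precursors 1 of 2 was called higher, of endothelium 1 of 5, of ependyma or choroid plexus 1 of 3, and of synapses 2 of 6. Pericyte markers had 1 called higher and 1 lower of 2. In the neuronal lists, 2 of 4 excitatory markers were called higher, and of 5 inhibitory markers 2 were higher and 2 lower. Among all genes tested, 11.8% were called higher and 13.2% lower with the block. The part of these cells in the channel values was not tested.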

How the data were processed

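The authors mapped the reads to GRCm38 with STAR 2.5.2b, per the labels, and deposited whole-number read counts of protein-coding genes on Gencode vM6, without normalization. The study's methods describe strand-specific libraries while the labels name a kit that does not mark strand, and strand use in counting is not given in the sources used here. Columns of the authors' own DESeq2 comparison were not used. The counts were tested in R 4.3.3 with edgeR 4.0.16, using TMM factors, filterByExpr and the quasi-likelihood test on all 12255 genes, with Benjamini-Hochberg adjustment and a threshold of 0.01. Simulated counts were used to check the code.

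Replicate numbers were taken to pair the libraries: each preparation was divided into aliquots, and the deviations of same-numbered libraries from their group means correlated at 0.37, 0.26 and 0.38 (other pairings -0.35 to 0.11). Replicates differed by more than sampling noise. The edgeR p-values rest on a spread between these samples that is estimated with information from all genes, not on a gene's own replicates alone. With the block, the SE was 0.124 for Kcna1 and 0.125 for Kcna2, Kcnh3 and Kcnh7. It was 0.184 both for Kcns1, with log2 differences of 0.72 to 0.80 within preparations, and for Kcnk12, with 0.43 to 1.5. The blocked p-values of such genes thus hardly reflect their own spread between preparations. Transcript sequences, lengths and GC content came from Gencode vM21, available for 99.6% of genes tested.

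Named are genes called in either fit, the highest per length in each subfamily, and the 5 highest and 5 lowest fold changes at 100 or more normalized counts on average and with 1 direction in all pairs. Of these, 26 are named, and 4 members count in every total without being reported here by name. Other genes fill out their subfamily. The members, partner list and marker lists were chosen with earlier results of these data known. Alternatives were DESeq2 1.42.0, other scaling factors, no filter, the replicate block, the same with the GC content and length trend removed as an offset (splines with 5 degrees of freedom), and leaving out each library.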

Additional observations from a re-analysis of the deposited data

How the results depend on the processing

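The smallest total library held 1044955 counts, which limits the precision of weak channels, and 22 of 94 genes were not tested. The calls depended on the setting. With 0 genes called higher and 1 lower in the unpaired fit, all genes with a count gave 3 and 3, DESeq2 1 higher, library totals only 2 lower, the replicate block 11 and 6, and the replicate block with GC and length offset 4 and 3. Leaving out single libraries gave 0 higher and 0 to 1 lower. For the partners, 0 and 0 became 2 higher and 4 lower with the replicate block, 5 and 1 with the offset added, and 1 lower each with library totals only, all genes with a count and DESeq2, and leaving out single libraries gave 0 higher and 0 lower. Library totals only moved the median over all genes by -0.11 and that of the channels from 0.08 to -0.026. The offset took Kcnd2 to 0.065. Values near 0 changed sign when 1 library was left out: Kcnc1 ranged from -0.014 to 0.31, Kcnn3 from -0.18 to 0.090 and Kcnt1 from -0.10 to 0.083. Of the 26 named genes, 15 gained a call with the replicate block and none lost one. The number of genes detected stayed between 78 and 90 under the definitions and libraries tried, and 9 of the 10 most abundant members remained among the 10 when the longest transcript was used. The cause of these changes was not tested.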
